A study of Homo sapiens with 9 samples.

Results

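The 10 genes described here encode the 5 subunits of the transcription factor NF-κB (NFKB1, NFKB2, REL, RELA and RELB) and 5 proteins that NF-κB induces and that act back on its pathway (NFKBIA, NFKBIE, NFKBIZ, TNFAIP3 and BIRC3). They were chosen by name from 58735 genes counted, with earlier results of these data known. All 10 were among the 16188 genes with enough counts to be tested. RNA was sequenced from MDA-MB-231, an established line of triple-negative breast cancer, in 9 libraries of 3 groups with 3 libraries each. Vehicle libraries came from cells given DMSO. Erastin-R and RSL3-R libraries came from cells of the same line that had survived erastin, an inhibitor of the cystine importer system xc-, or RSL3, an inhibitor of the lipid peroxide reductase GPX4. Both compounds kill cells by ferroptosis, a death driven by lipid peroxidation. The labels name the agent of each library and give no dose or time, and they do not say whether the libraries of a group came from separate cultures, so the p-values measure only the spread between these libraries.

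NF-κB subunits bind DNA as dimers. In resting cells most RELA dimers are held in the cytoplasm by IκB proteins, and an IκB kinase complex releases them by marking IκB for degradation, which is called the canonical pathway. A second, non-canonical pathway runs through the kinase NIK and the processing of the NFKB2 precursor and releases RELB dimers. Once in the nucleus, NF-κB induces several of its own subunits and the proteins that shut it off again. NFKBIA encodes IκBα and NFKBIE encodes IκBε, which both retain NF-κB in the cytoplasm. NFKBIZ encodes IκBζ, a nuclear IκB-like protein that is known mainly to help NF-κB switch on a subset of targets, so the word inhibitory describes it only in part. TNFAIP3 encodes A20, an enzyme that edits ubiquitin chains, and BIRC3 encodes cIAP2, a ubiquitin ligase of the inhibitor of apoptosis family that acts at tumour necrosis factor receptors and in the turnover of NIK.

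The DNA before the transcription start is shown because several of these genes are textbook targets of NF-κB itself. RefSeq promoter windows on GRCh38.p14 were found for 8 of the 10 genes, in 13 windows, since some genes have more than 1 start. RELB and NFKBIE had no entry. The 250 bases before each start were searched on both strands for the 10-base κB consensus, the sequence NF-κB dimers prefer. It was found in 9 of the 13 windows and in 7 of the 8 genes, all but RELA. Among all 35116 windows, 5.21% held a match, and among all 27305 genes 6.28% did. A match describes the letters only and not whether a factor was bound. In the sequences below, written from 5′ to 3′ on the gene's strand, capitals mark the consensus match. The first set gives the upstream sequence of NFKBIZ (chr3:101827740-101827989, plus strand), BIRC3 (chr11:102317234-102317449, plus strand) and NFKBIA (chr14:35404750-35404999, minus strand), the feedback genes with the largest rise and the largest falls against vehicle. The window of BIRC3 is printed without its last 34 bases, where GENCODE release 29 begins the gene.
NFKBIZ: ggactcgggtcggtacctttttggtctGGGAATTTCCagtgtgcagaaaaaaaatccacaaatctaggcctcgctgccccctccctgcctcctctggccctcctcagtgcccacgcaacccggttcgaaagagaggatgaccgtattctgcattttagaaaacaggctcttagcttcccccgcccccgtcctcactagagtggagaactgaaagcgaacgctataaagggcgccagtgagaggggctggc
BIRC3: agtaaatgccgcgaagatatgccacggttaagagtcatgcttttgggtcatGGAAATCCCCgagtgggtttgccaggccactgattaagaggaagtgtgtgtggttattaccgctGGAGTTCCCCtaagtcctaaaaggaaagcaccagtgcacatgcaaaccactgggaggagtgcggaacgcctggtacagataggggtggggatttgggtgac
NFKBIA: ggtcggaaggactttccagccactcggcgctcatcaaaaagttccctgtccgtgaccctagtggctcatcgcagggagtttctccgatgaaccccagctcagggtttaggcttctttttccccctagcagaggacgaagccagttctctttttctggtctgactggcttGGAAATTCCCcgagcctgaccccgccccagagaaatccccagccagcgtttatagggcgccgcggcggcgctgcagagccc

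The match lay 223 to 214 bases before the first start of NFKBIZ and 81 to 72 bases before the start of NFKBIA. BIRC3 had 2 matches, one 199 to 190 and one 135 to 126 bases before its start, counted like all positions here from the RefSeq start. The following 30-base stretches show the matches of NFKB1 (chr4:102501300-102501329), REL (chr2:60881518-60881547), NFKB2 at its start 3 (chr10:102395674-102395703) and TNFAIP3 (chr6:137867188-137867217), all on the plus strand, so that the matches of subunit and feedback genes can be set beside each other. GENCODE release 29, which gives the gene positions used below, begins these 4 genes upstream of the RefSeq starts used here. By its positions the stretches of NFKB2 and TNFAIP3 lie inside the gene and that of REL does so in part. The stretch of NFKB1 ends on the first base of its gene. Whether the stretches lie in exons is not given here.
NFKB1: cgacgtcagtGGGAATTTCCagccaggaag
REL: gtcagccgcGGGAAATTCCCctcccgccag
NFKB2: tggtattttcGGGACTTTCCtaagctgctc
TNFAIP3: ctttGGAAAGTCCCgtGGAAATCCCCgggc

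NFKB1 and the first start of NFKBIZ held the same 10 letters. In REL the match reads on both strands, shifted by 1 base, and TNFAIP3 held 2 matches on the other strand within these 30 bases.

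**Figure D1:**
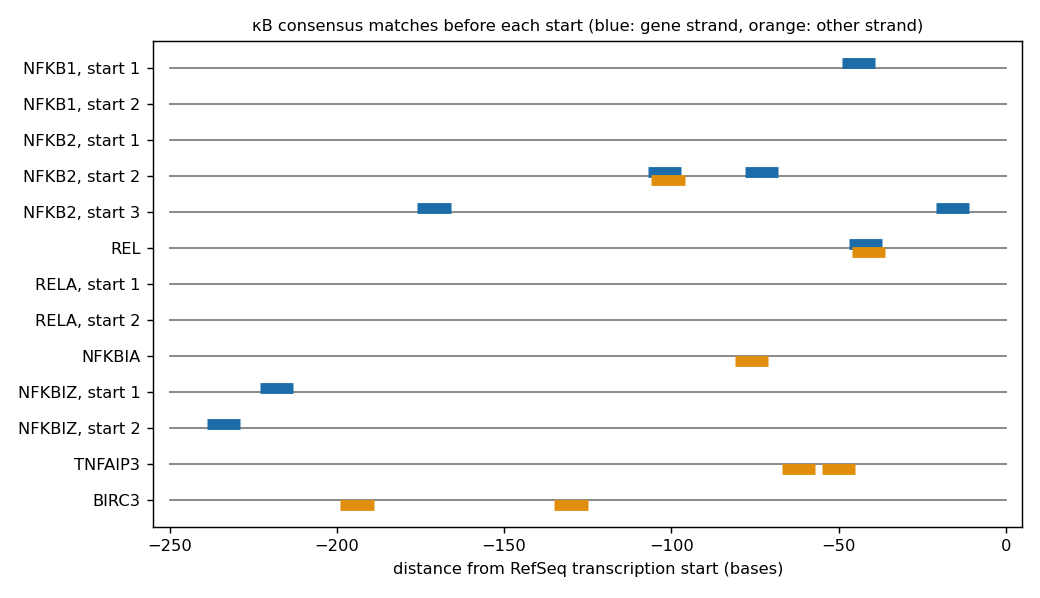
Position of κB consensus matches in the 250 bases before each RefSeq transcription start of 8 genes (x axis, bases before the start), with the gene's own strand in blue and the other strand in orange. The 13 windows held 15 matches, with none in the 2 windows of RELA, the second window of NFKB1 or the first of NFKB2.

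Levels between genes are given as FPKM, the authors' counts scaled by gene length and library size. In vehicle cells NFKBIA stood highest, between 32.2 and 36.3 FPKM. RELA (21.8 to 23.2), NFKB2 (20.7 to 23.3) and BIRC3 (18.5 to 23.2) followed with ranges that overlapped. NFKBIZ (11.4 to 12.2), NFKBIE (8.91 to 11.5), NFKB1 (9.24 to 9.73) and RELB (7.42 to 10.7) came next, and neighbours in this order overlapped too. TNFAIP3 lay below them, between 3.25 and 3.68 FPKM, and REL, the subunit best known from lymphocytes, was lowest at 0.479 to 0.488 FPKM. In erastin-R cells NFKB2 and RELA were the highest, at 33.0 ± 2.92 and 27.8 ± 2.29 FPKM (SD, n = 3), with NFKBIA at 24.6 ± 1.74 and NFKBIZ at 24.4 ± 0.470. In RSL3-R cells NFKBIA (34.7 ± 0.967), NFKBIZ (30.4 ± 0.676) and NFKB2 (28.3 ± 0.733) led. NFKBIZ thus moved from the fifth place in vehicle cells to the second in RSL3-R cells.

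Against vehicle, 5 of the 10 genes were higher in erastin-R cells, 3 were lower and 2 did not pass an adjusted p of 0.05 (edgeR's quasi-likelihood test). Over all genes tested, 27.1% were higher and 26.8% lower in this comparison, together 54.0%. Of the 10, RSL3-R had 5 higher, none was lower by edgeR (BIRC3 was lower under 3 alternatives), and 5 did not pass. None of the 10 was lower at an unadjusted p under 0.05 either. Over all genes, 23.8% were higher and 24.9% lower here, together 48.7%. Between RSL3-R and erastin-R cells, 5 of the 10 were higher in RSL3-R, 2 were lower and 3 did not pass, where 22.3% of all genes were higher and 26.9% lower, together 49.2%. Only NFKBIZ among the 10 also passed an absolute log2 fold change of 1, in both comparisons with vehicle, a size reached by 13.4% of all genes with erastin-R and 10.1% with RSL3-R. Between RSL3-R and erastin-R none of the 10 reached that size, which 10.3% of all genes did. The 10 genes had a median log2 fold change of 0.16 with erastin-R and 0.26 with RSL3-R against vehicle, against -0.0042 and 0.0052 over all genes tested. The set of 10 was chosen with earlier results of these data known. Both comparisons share the 3 vehicle libraries. A measure of RNA over many cells cannot tell fewer cells with a transcript from less of it in each cell.

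**Figure D2:**
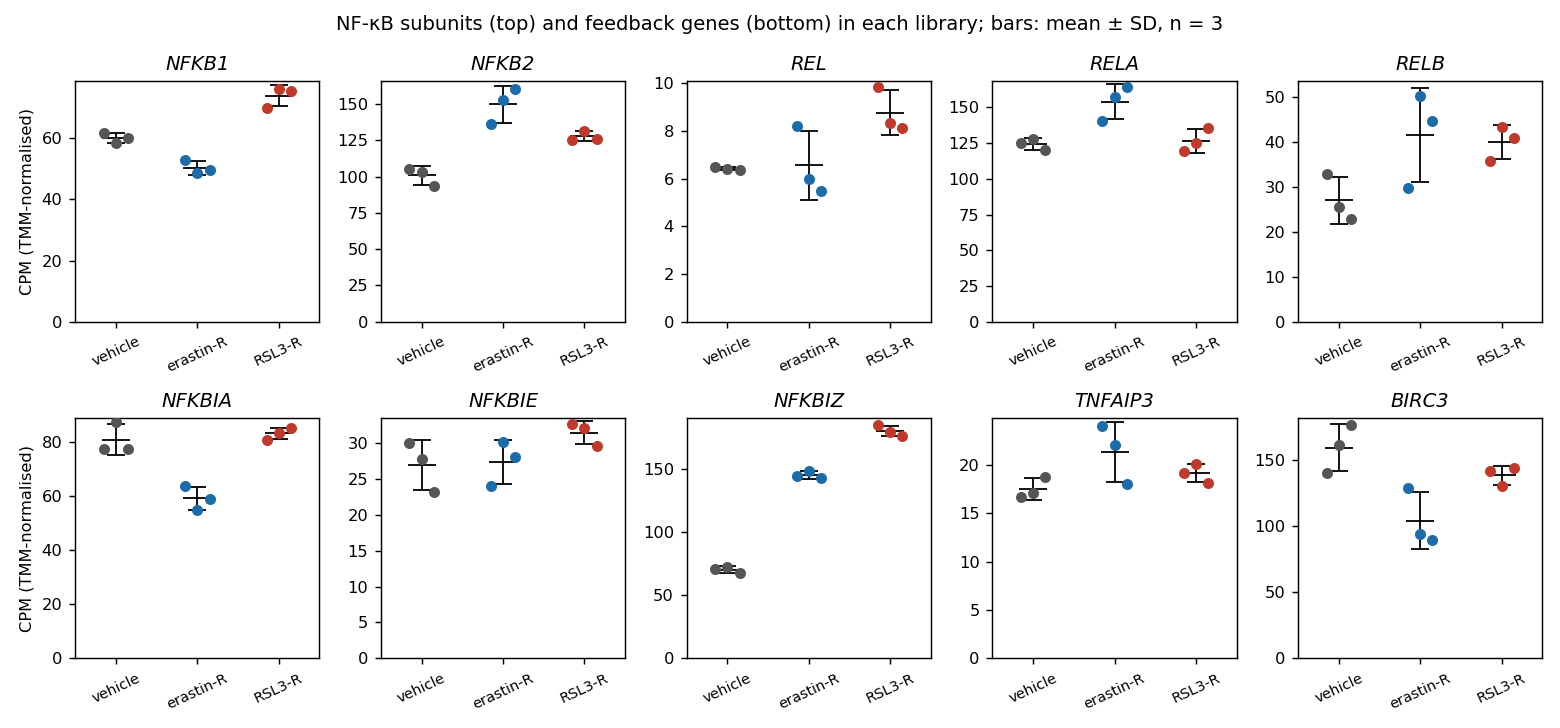
Normalised level (CPM, y axes from 0) of each gene in the 9 libraries, with vehicle in grey, erastin-R in blue and RSL3-R in red, replicates 1 to 3 from left to right, and the mean ± SD (n = 3) in black. The 3 groups of NFKBIZ are separate, with vehicle lowest and RSL3-R highest, while the groups of NFKBIE and TNFAIP3 overlap.

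NFKBIZ (ENSG00000144802, chr3:101827991-101861022 on GRCh38, plus strand) rose most. Its CPM, the count scaled by normalised library size, which compares 1 gene across libraries, were 71.1, 72.7 and 67.6 in vehicle replicates 1 to 3, 145, 149 and 143 in erastin-R, and 185, 179.5 and 177 in RSL3-R. The 3 groups did not overlap, and each spread over a narrow range. NFKBIZ was 2.07-fold higher in erastin-R cells (log2 fold change 1.05, standard error (SE) 0.057, adjusted p = 7.31e-09) and 2.56-fold higher in RSL3-R cells (1.36, SE 0.057, adjusted p = 4.45e-10). It was also higher in RSL3-R than in erastin-R cells, by 0.31 on the log2 scale (SE 0.055, adjusted p = 4.15e-04). These 3 calls held under all 16 alternatives of normalization, filter, model and left-out library.

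NFKBIA (ENSG00000100906, chr14:35401511-35404749, minus strand), the classical inhibitor, did not follow NFKBIZ. It read 77.4, 87.2 and 77.4 CPM in vehicle, 63.5, 54.8 and 59.0 CPM in erastin-R and 80.8, 83.2 and 85.2 CPM in RSL3-R cells. Every erastin-R library was below every library of both other groups, which overlapped each other. Against vehicle, NFKBIA changed by -0.45 on the log2 scale with erastin-R (SE 0.074, adjusted p = 1.63e-04), and its log2 difference with RSL3-R was 0.04 (95% interval -0.11 to 0.20, adjusted p = 0.663). The direct difference between RSL3-R and erastin-R was 0.49 (adjusted p = 9.81e-05).

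BIRC3 (ENSG00000023445, chr11:102317450-102339403, plus strand) was lower in erastin-R cells. Its levels were 141, 162 and 176 CPM in vehicle, 129, 94.0 and 89.8 CPM in erastin-R and 142, 130.4 and 144 CPM in RSL3-R cells. Erastin-R replicate 1 lay nearest to the vehicle libraries, without reaching them. BIRC3 in erastin-R cells was at 0.654 of the vehicle level (log2 fold change -0.61, SE 0.118, adjusted p = 5.85e-04). With RSL3-R the log2 difference was -0.20 (95% interval -0.45 to 0.05, adjusted p = 0.171). With no filter on low counts, with a model of the 2 groups alone, or without erastin-R replicate 1, this last difference passed (adjusted p = 0.0187, 0.00870 and 0.00391). RSL3-R stood 0.41 above erastin-R (adjusted p = 0.0105), which became 0.0531 without erastin-R replicate 3.

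TNFAIP3 (ENSG00000118503, chr6:137867188-137883312, plus strand) differed little between groups. It had 16.6, 17.0 and 18.8 CPM in vehicle, 24.1, 22.1 and 18.0 CPM in erastin-R and 19.2, 20.1 and 18.2 CPM in RSL3-R cells. The erastin-R range reached into that of vehicle. Erastin-R exceeded vehicle by 0.29 on the log2 scale (adjusted p = 0.0417), and this call was lost in 10 of 15 alternatives, among them each library left out except vehicle replicate 3 and erastin-R replicate 3, with an adjusted p of up to 0.130. The RSL3-R difference was 0.13 (95% interval -0.11 to 0.38, adjusted p = 0.361). TNFAIP3 shares 1.88% of its exon bases with an antisense gene of at most 11 counts, and whether the counting used strand is not given in the sources used here.

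NFKBIE (ENSG00000146232, chr6:44258166-44265788, minus strand) passed in none of the 3 comparisons by edgeR with all 9 libraries. Its CPM ran from 23.2 to 29.99 in vehicle, from 24.1 to 30.1 in erastin-R and from 29.6 to 32.6 in RSL3-R cells. Its log2 difference from vehicle was 0.02 with erastin-R (95% interval -0.21 to 0.25, adjusted p = 0.883) and 0.22 with RSL3-R (95% interval -0.01 to 0.45, adjusted p = 0.107). The RSL3-R difference passed in 4 of 16 alternatives, including the one without erastin-R replicate 1 (adjusted p = 0.0315). RSL3-R minus erastin-R was 0.20 (adjusted p = 0.142), which passed with quantile normalization and limma (0.27, adjusted p = 0.0479). Of the 5 feedback genes, 2 were called higher and 2 lower in erastin-R cells and 1 was called higher in RSL3-R cells. Over all genes tested, 27.1% were higher and 26.8% lower in erastin-R, and 23.8% were higher in RSL3-R. Their summed level was 77.3 to 83.7 FPKM in vehicle, 74.8 to 81.0 FPKM in erastin-R and 98.3 to 99.9 FPKM in RSL3-R libraries.

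Among the subunits, NFKB1 (ENSG00000109320, chr4:102501329-102617302, plus strand), which encodes p105 and its product p50, moved in opposite directions. The libraries read 61.6, 58.5 and 60.1 CPM in vehicle, 52.8, 48.5 and 49.5 CPM in erastin-R and 70.0, 76.2 and 75.4 CPM in RSL3-R cells. The 3 groups did not overlap, with vehicle in the middle. On the log2 scale NFKB1 fell by 0.26 with erastin-R (SE 0.067, adjusted p = 0.00506) and rose by 0.30 with RSL3-R (SE 0.066, adjusted p = 0.00196). The difference between RSL3-R and erastin-R was 0.55 (adjusted p = 1.47e-05), and all 3 calls held in each of the 16 alternatives.

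NFKB2 (ENSG00000077150, chr10:102394110-102402529, plus strand), which encodes p100 and p52, rose in both. It had 106, 103 and 93.6 CPM in vehicle, 136, 153 and 161 CPM in erastin-R and 126, 132 and 126 CPM in RSL3-R cells. No group overlapped another, and erastin-R was highest. The rise was 0.57 on the log2 scale with erastin-R (SE 0.072, adjusted p = 1.52e-05) and 0.34 with RSL3-R (SE 0.072, adjusted p = 0.00137). RSL3-R was 0.23 below erastin-R (log2 fold change -0.23, adjusted p = 0.0157). That call was lost in 6 of 16 alternatives, with an adjusted p of 0.0701 without erastin-R replicate 3 and 0.109 without RSL3-R replicate 1 or replicate 3.

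RELB (ENSG00000104856, chr19:45001430-45038198, plus strand), the usual partner of p52, had 32.7, 25.4 and 22.7 CPM in vehicle, 29.7, 50.01 and 44.6 CPM in erastin-R and 35.7, 43.2 and 40.8 CPM in RSL3-R cells. Erastin-R replicate 1 lay inside the vehicle range, and all RSL3-R libraries lay above it. RELB rose by 0.62 on the log2 scale with erastin-R (SE 0.169, adjusted p = 0.00673) and by 0.57 with RSL3-R (SE 0.169, adjusted p = 0.0131). The RSL3-R call was lost without vehicle replicate 2, vehicle replicate 3 or RSL3-R replicate 2 (adjusted p = 0.0506, 0.0704 and 0.0560). Between RSL3-R and erastin-R cells the log2 difference was -0.05 (95% interval -0.41 to 0.30, adjusted p = 0.812), and without erastin-R replicate 1 it was -0.25 (adjusted p = 0.0396).

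RELA (ENSG00000173039, chr11:65653596-65663094, minus strand), the main activating subunit of the canonical pathway, rose in erastin-R cells. The values were 125, 128 and 119.9 CPM in vehicle, 141, 157 and 164 CPM in erastin-R and 119, 125 and 136 CPM in RSL3-R cells. Erastin-R stood above both other groups, which overlapped. Erastin-R exceeded vehicle by 0.31 on the log2 scale (SE 0.071, adjusted p = 0.00209), and RSL3-R differed from it by 0.03 (95% interval -0.13 to 0.18, adjusted p = 0.787). RSL3-R minus erastin-R was -0.28 (adjusted p = 0.00440), which became -0.21 (adjusted p = 0.0596) without RSL3-R replicate 1.

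REL (ENSG00000162924, chr2:60881521-60931610, plus strand) rested on 90 to 153 counts per library, the fewest of the 10 genes. It had 6.50, 6.42 and 6.35 CPM in vehicle, 8.22, 5.98 and 5.47 CPM in erastin-R and 9.86, 8.33 and 8.12 CPM in RSL3-R cells. Erastin-R libraries lay on both sides of the vehicle ones, and RSL3-R libraries lay above them. REL differed from vehicle by 0.03 on the log2 scale with erastin-R (95% interval -0.32 to 0.38, adjusted p = 0.887) and rose by 0.45 with RSL3-R (SE 0.159, adjusted p = 0.0319). The RSL3-R call was lost in 5 of 15 alternatives, namely without any of the vehicle replicates, RSL3-R replicate 1 or RSL3-R replicate 2, with an adjusted p of up to 0.0953. RSL3-R minus erastin-R was 0.42 (adjusted p = 0.0431), lost in 10 of 15 alternatives, among them each library left out except erastin-R replicate 1 and RSL3-R replicate 3 (adjusted p up to 0.169). REL shares 43.3% of its exon bases with a non-coding gene on the same strand that had 0 counts in every library. Whether reads there were counted for REL is not given in the sources used here, so its level is uncertain. If they were left out, its FPKM, scaled by the full gene length, would read too low.

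**Figure D3:**
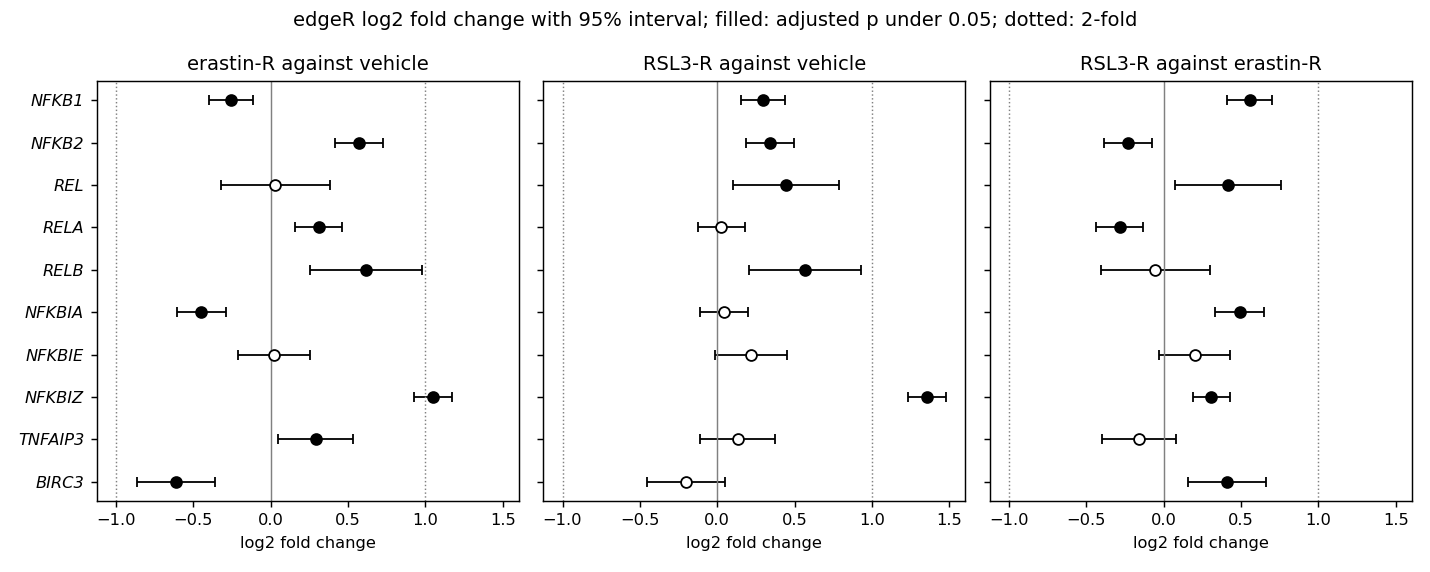
Log2 fold change of each gene in the 3 comparisons (x axes) with its 95% interval from edgeR, filled where the adjusted p was under 0.05, with dotted lines at 2-fold. NFKBIZ lies at 1.05 and 1.36 against vehicle, and NFKB1 lies at -0.26 with erastin-R and 0.30 with RSL3-R.

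As shares of the summed FPKM of the 5 subunits, which leave aside how much protein each transcript yields, RELA and NFKB2 made up most of the subunit transcripts in every library. NFKB2 held 35.0% ± 0.555 (SD, n = 3) in vehicle, 39.9% ± 0.845 with erastin-R and 36.9% ± 1.27 with RSL3-R. RELA held 35.5% ± 1.41, 33.7% ± 0.775 and 29.97% ± 1.31 in the same order. The share of NFKB1 was 14.98% ± 0.817 in vehicle, 9.67% ± 1.37 with erastin-R and 15.3% ± 0.0762 with RSL3-R, and the erastin-R libraries, at 8.86% to 11.2%, lay below all others. The share of RELB was 13.8% ± 1.94, 16.1% ± 2.90 and 17.0% ± 0.982, with overlap between erastin-R and both other groups. REL stayed between 0.467% and 1.02% in all libraries, with the uncertainty from its shared exon bases given above. The summed level was 59.9 to 66.7 FPKM in vehicle, 73.6 to 88.1 in erastin-R and 72.9 to 78.6 in RSL3-R libraries, so both treated groups lay above vehicle. These shares and sums were not tested.

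**Figure D4:**
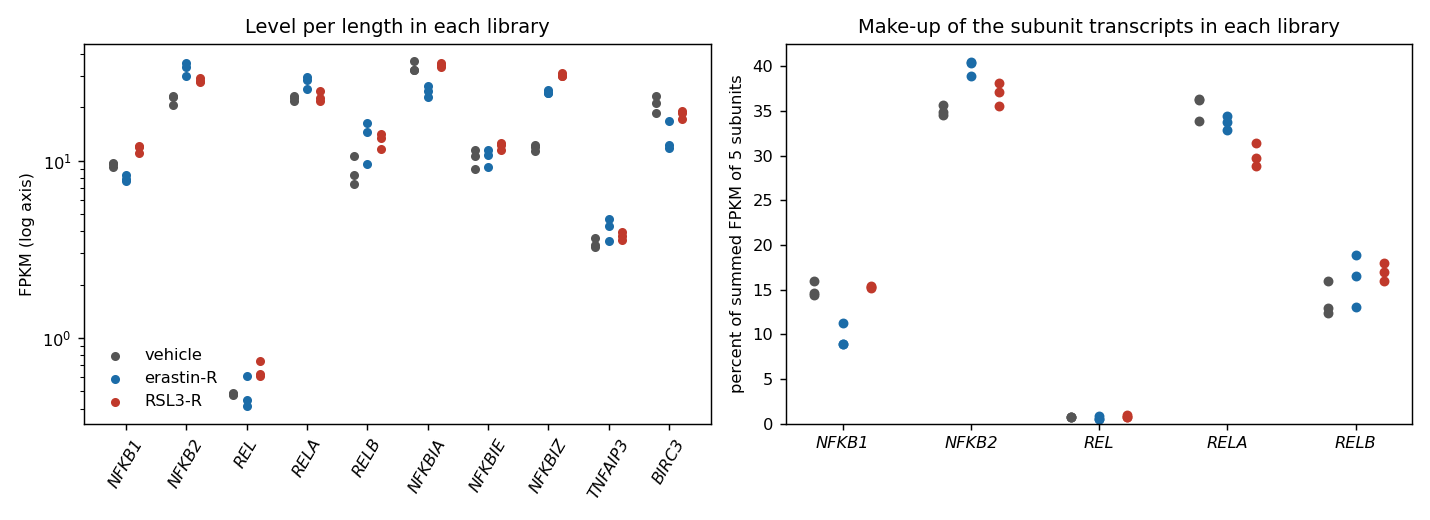
Left, FPKM of the 10 genes in each library on a log axis. Right, the percent of the summed FPKM of the 5 subunits held by each, in each library, with vehicle in grey, erastin-R in blue and RSL3-R in red. The NFKB1 share lies at 8.86% to 11.2% in erastin-R and at 14.4% or more in the other libraries.

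The other genes of the pathway were taken from lists by role. Over all genes tested, 27.1% were higher and 26.8% lower in erastin-R cells, and 23.8% and 24.9% in RSL3-R cells. These shares belong beside the counts of every list below. Of 13 genes that write, read or remove ubiquitin chains in NF-κB signalling, or that act with A20, 8 were higher and 0 lower in erastin-R cells by edgeR, with 0 lower also at an unadjusted p under 0.05 and by DESeq2 or limma, and RSL3-R had 8 higher and 2 lower. The lower count in RSL3-R became 1 without RSL3-R replicate 1 or replicate 3. RBCK1, which encodes HOIL-1 of the linear ubiquitin ligase, ranged from 108 to 112 CPM in vehicle, 184 to 216 in erastin-R and 478 to 510 in RSL3-R libraries, and its log2 fold changes against vehicle were 0.89 (adjusted p = 1.25e-07) and 2.15 (adjusted p = 7.45e-11). Its partners in that ligase, RNF31 and SHARPIN, named here after their values were seen, were at -0.05 and -0.15 in erastin-R cells (adjusted p = 0.681 and 0.282) and were lower in RSL3-R cells at -0.36 and -0.42 (adjusted p = 0.00569 and 0.00980). ZC3H12A, an RNase that degrades inflammatory messenger RNAs, rose by 0.85 and 1.46 on the log2 scale. TNIP3, an A20-binding protein, was at 1.73 and 1.56 on at most 22 counts per library, and its RSL3-R call was lost without vehicle replicate 2 or RSL3-R replicate 1 (adjusted p = 0.0603 and 0.0554). CYLD, a deubiquitinase that restrains NF-κB, also named after its values were seen, rose by 0.53 and 0.54.

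Of 12 kinases and kinase partners upstream of IκB, 4 were higher and 3 lower in erastin-R cells, and RSL3-R had 3 higher and 4 lower. The higher count in erastin-R became 2 without vehicle replicate 2. The lower count in RSL3-R became 2 without any 1 of the vehicle replicates, RSL3-R replicate 1 or RSL3-R replicate 3. It was also 2 with DESeq2, and 1 with a mean FPKM of at least 5. The 3 lower in erastin-R, none of which reached 2-fold, were MAP3K14, which encodes NIK (log2 fold change -0.96), RIPK1 (-0.96) and IKBKE (-0.79). MAP3K14 had 36.8 to 39.1 CPM in vehicle, 17.0 to 21.3 CPM in erastin-R and 21.1 to 25.3 CPM in RSL3-R libraries, with both treated groups below vehicle (RSL3-R log2 fold change -0.72). Of 15 adaptors, 3 were higher and 6 lower in erastin-R, and 3 higher and 5 lower in RSL3-R cells, the last count being 3 without RSL3-R replicate 1 or replicate 3. IRAK2, which couples interleukin-1 and Toll-like receptors to NF-κB, rose from 25.4 to 28.2 CPM in vehicle to 58.7 to 63.8 CPM in erastin-R and 55.5 to 62.3 CPM in RSL3-R libraries (log2 fold change 1.20, adjusted p = 2.59e-08, and 1.13, adjusted p = 4.01e-08).

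Of 6 other IκB proteins and cofactors, 1 was higher and 0 lower in erastin-R cells by edgeR, also at an unadjusted p under 0.05, and 1 was higher and 1 lower in RSL3-R cells. The lower count in erastin-R was 2 without erastin-R replicate 1 and 1 with quantile normalization and limma. The one higher in erastin-R was BCL3, a nuclear IκB-like partner of p50 and p52 (log2 fold change 0.43, adjusted p = 0.0146), which was lost without vehicle replicate 3, erastin-R replicate 2 or erastin-R replicate 3. NFKBID was the one lower in RSL3-R (-0.73, adjusted p = 0.00954) on 33 to 79 counts, a call lost without RSL3-R replicate 3, and without erastin-R replicate 1 or replicate 3 the lower count was 2. Of the 4 genes of the ligase that marks IκB for degradation, 1 was higher and 1 lower in erastin-R, and 0 passed in RSL3-R cells by edgeR with all libraries, also at an unadjusted p under 0.05. There, 1 was lower without erastin-R replicate 1, and 1 was higher with a mean FPKM of at least 5 and with quantile normalization and limma. The one lower, SKP1 (-0.18, adjusted p = 0.0198), was lost without vehicle replicate 1, vehicle replicate 3 or erastin-R replicate 3. Of the relatives of BIRC3, XIAP was higher by 0.53 with erastin-R and 0.57 with RSL3-R, and BIRC2, the closest relative, was at -0.04 (adjusted p = 0.561) and 0.04 (adjusted p = 0.598).

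Of 24 known NF-κB target genes outside the 10, 18 had enough counts to be tested. Erastin-R had 11 higher and 4 lower, with a median log2 fold change of 0.70, and RSL3-R had 15 higher and 1 lower, with a median of 1.43. At an adjusted p under 0.05, RSL3-R was above erastin-R for 13 of the 18 and below it for 1, and 4 did not pass. The count below became 0 under some alternatives, such as quantile normalization with limma. Over all genes tested, 27.1% were higher and 26.8% lower in erastin-R against vehicle. With RSL3-R these shares were 23.8% and 24.9% against vehicle, and 22.3% and 26.9% against erastin-R. The list was chosen with results of these libraries known. CD83, a membrane protein of activated immune cells, fell by 1.27 on the log2 scale in erastin-R cells (adjusted p = 8.63e-07). In RSL3-R cells it was the one lower gene (-0.33, adjusted p = 0.0226), a call lost without vehicle replicate 1, vehicle replicate 3, RSL3-R replicate 1 or RSL3-R replicate 2. MMP9, a secreted matrix protease, was lower in erastin-R cells (-1.75, adjusted p = 0.00336) on 4 to 38 counts per library and at -0.22 in RSL3-R cells (adjusted p = 0.653). CSF2, the growth factor GM-CSF, was lower in erastin-R (-1.02, adjusted p = 0.00319) and higher in RSL3-R cells (1.87, adjusted p = 2.91e-06). The interleukins IL1A and IL1B rose in both, IL1B by 1.65 and 2.86 on the log2 scale.

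**Figure D5:**
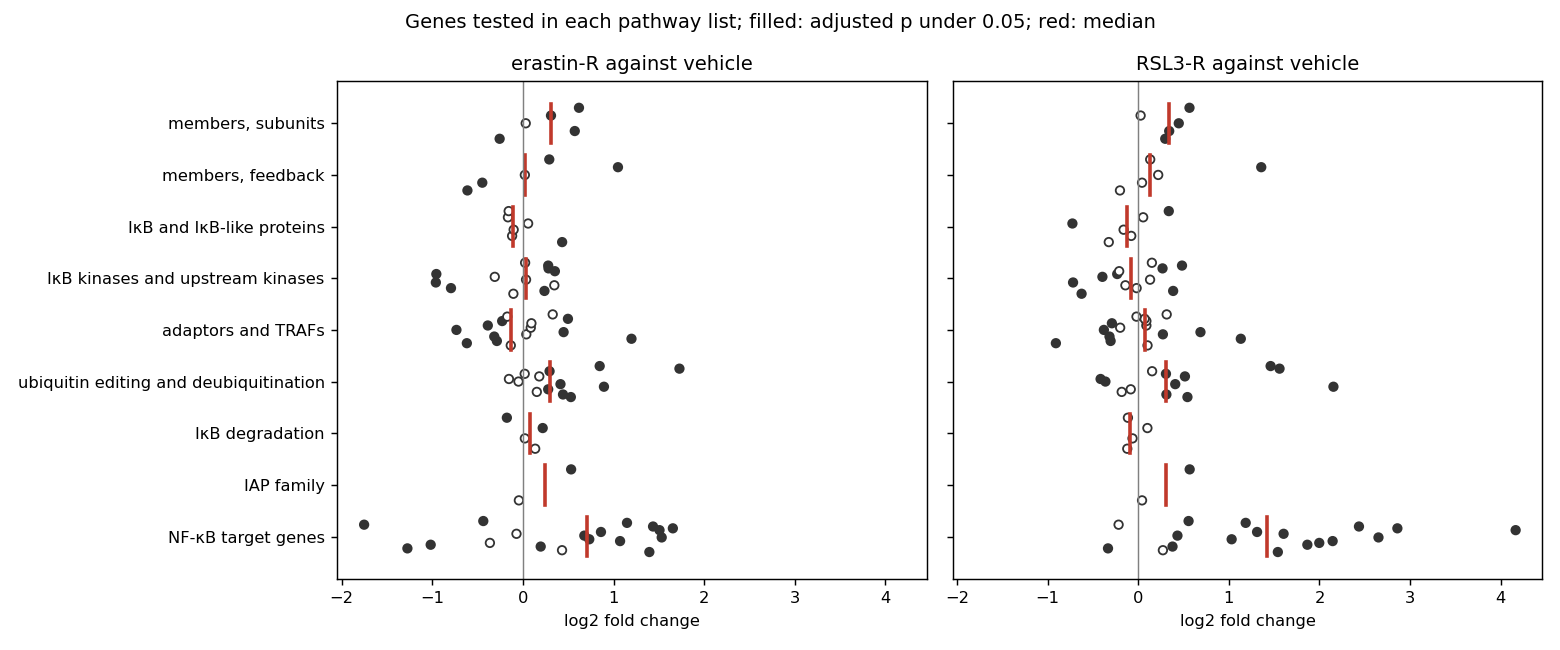
Log2 fold change against vehicle (x axes) of every gene tested in each pathway list, each point 1 gene, filled where the adjusted p was under 0.05, with the list's median in red. The known targets have medians of 0.70 with erastin-R and 1.43 with RSL3-R, and those of the 5 subunits are 0.31 and 0.34.

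The genes whose CPM followed a member most closely over the 9 libraries were found by Pearson correlation on the log2 scale among 12960 protein-coding genes, for the 3 members with the widest range. For NFKBIZ these were TXNIP (r = 0.998), ERN1 (r = 0.997) and HOXB9 (r = 0.997). For BIRC3 they were USP16 (r = 0.994), ACTR2 (r = 0.989) and CAST (r = 0.988), and for RELB they were PKD1 (r = 0.979), ZNF687 (r = 0.967) and DMPK (r = 0.957). The 9 libraries form 3 groups, so any gene with the same order of groups scores high, and these values describe likeness only.

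Total counts were 15405102 to 17273464 per library, the common coefficient of variation between replicates was 8.56%, and the level of 3 counts taken as a floor, which covers counting error only, was 0.175 to 0.193 CPM. Libraries of a group correlated more closely (r from 0.985 to 0.991 over all genes tested) than libraries of different groups (0.957 to 0.971). Erastin-R replicate 1 stood apart from the other 2 erastin-R libraries most on the third principal component (-37.6 against 15.3 and 13.5), which held 6.83% of the variance. It also lay apart on the first (37.9 against 53.6 and 52.0, 41.9% of the variance) and second (7.88 against 18.7 and 19.5, 32.4%). RELB, BIRC3 and REL above showed the same separation, while NFKBIZ did not. For NFKB1, NFKB2, RELA and NFKBIA, replicate 1 was the erastin-R library nearest to vehicle. Without erastin-R replicate 1, the erastin-R log2 fold change was 0.81 for RELB, -0.80 for BIRC3 and -0.17 for REL. Markers of this mesenchymal line were high (VIM, CD44, AXL and MSN, 22.8 to 301 FPKM), ESR1 and PGR had at most 12 and 2 counts, and ERBB2 had 5.74 to 9.28 FPKM. EPCAM had 15 to 48 counts and CDH1 had 6 to 59, with CDH1 higher in RSL3-R than in vehicle cells (log2 fold change 1.58, adjusted p = 0.00130). Of other cells that express these genes, the leukocyte markers PTPRC, CD3E and MS4A1 had at most 24, 4 and 2 counts, and CD14 had 20 to 66. The 7 leukocyte markers summed to 2.32 to 2.83 FPKM in vehicle, 0.756 to 1.27 in erastin-R and 1.96 to 2.497 in RSL3-R libraries. The 3 endothelial markers summed to 1.24 to 1.42, 0.198 to 0.301 and 1.502 to 1.80 FPKM in the same order, with CDH5 at 3 counts or fewer and PECAM1 at 20 to 222, and the 4 fibroblast markers to 1.04 to 1.09, 0.816 to 1.01 and 1.54 to 1.66 FPKM, with PDGFRA at 1 count or 0 and PDGFRB at 96 to 191. CD14 and PECAM1 were lower in erastin-R cells (log2 fold change -1.23, adjusted p = 3.16e-04, and -2.47, adjusted p = 8.28e-08), and PDGFRB was higher in RSL3-R cells (0.69, adjusted p = 3.90e-04). Markers within a list did not move together. In RSL3-R cells PTPRC was higher (1.67, adjusted p = 0.00818), while CD14 was at -0.23 (adjusted p = 0.367). DCN, on at most 18 counts, was lower in erastin-R (-2.86, adjusted p = 6.41e-04) and in RSL3-R cells (-2.14, adjusted p = 0.00305). The leukocyte, endothelial and fibroblast sums rest mainly on CD14 (0.665 to 2.14 FPKM), PECAM1 (0.162 to 1.76) and PDGFRB (0.786 to 1.65). These sums were lowest in erastin-R cells, where NFKBIA, NFKB1 and BIRC3 were lowest too and NFKB2 and RELA were highest. The part of these markers in the results was not tested.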

How the data were processed

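Poly(A)-selected libraries from MDA-MB-231 cells were sequenced in 3 groups of 3. The authors deposited, for each library, uniquely mapped exonic read counts per gene without normalization, and FPKM values made from the same counts. The submitters' processing notes name HISAT2 2.0.5 and featureCounts 1.5.0-p3. Strand settings were not given in the sources used here. All 58735 gene identifiers and coordinates equal those of GENCODE release 29 (GRCh38).

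Tests used edgeR 4.0.16 in R 4.3.3 on these counts (TMM, filterByExpr, quasi-likelihood test, 1 model of the 9 libraries with no covariate), adjusting p by Benjamini-Hochberg over the 16188 genes tested. Total counts were 15405102 to 17273464. FPKM served for levels between genes. Groups came from the labels. Alternatives were DESeq2 1.42.0, median-ratio size factors, quantile normalization with limma 3.58.1, no filter, a mean FPKM of at least 5, the replicate number as a block, only the 2 groups compared and each library left out. The fits were tested on simulated counts, in which far fewer genes changed than were called here and all genes shared the same spread. Error rates in these data were not measured by it. Figures used Python 3.11.15 and matplotlib 3.10.9.

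The 10 genes and the pathway lists were chosen with earlier results of these data known. Named were all 10 genes, in each list up to 3 higher and 3 lower genes with an adjusted p under 0.05 and at least a 2-fold change in any comparison, and the 3 genes most like each of the 3 members of widest range. Genes outside this rule were named after their values were seen.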

Additional observations from a re-analysis of the deposited data

Results flagged for a closer look

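NFKB1 was singled out because its differences from vehicle had opposite signs in the 2 treated groups and it passed in all 3 comparisons. RSL3-R exceeded erastin-R by 0.55 on the log2 scale in the direct comparison (adjusted p = 1.47e-05 from edgeR). Every RSL3-R library was above and every erastin-R library below the 3 vehicle libraries. NFKBIA also had opposite signs against vehicle (-0.45 and 0.04), but its RSL3-R difference did not pass (adjusted p = 0.663 from edgeR). Groups of 3 are too small for a test of single outlying libraries, so none was made.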

How the results depend on the processing

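Over the alternatives that gave a value, the fold changes of the 10 genes kept direction and side of the threshold in 421 of 474 cases, lost the call in 36, gained it in 9 and changed sign in 8, none of these 8 past the threshold. With 1 library left out, the number of the 10 genes higher was 4 to 5 in erastin-R against vehicle, 3 to 6 in RSL3-R against vehicle and 3 to 5 in RSL3-R against erastin-R. The number lower was 3 in each case, 0 to 1 and 0 to 3. Over all genes tested in these fits (16589 to 16654), 3856 to 4917, 3191 to 4549 and 3076 to 4503 were higher in the same order. Those lower were 3852 to 5040, 3126 to 4852 and 3275 to 4989. The number lower in RSL3-R against vehicle was 1 with no filter and with only the 2 groups compared, where 4140 of 34018 and 4682 of 15701 genes were lower. The number lower in RSL3-R against erastin-R was 1 with quantile normalization, with a mean FPKM of at least 5, and with only the 2 groups compared. Over all genes tested, 4031 of 16188, 2356 of 7454 and 3588 of 15740 were lower there. REL and TNFAIP3 fell below the FPKM minimum and have no value there. That minimum also left 438, 428 and 294 genes past both thresholds in the 3 comparisons, with 7454 genes tested. In the main fit 2162, 1635 and 1674 passed, with 16188 tested. The cause of the drop was not tested.

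The changes of sign were as follows, all in log2 fold changes. With 1 library left out, RELB in RSL3-R against erastin-R ran from -0.25 (without erastin-R replicate 1, the only value of these past the threshold) to 0.10, and it was 0.073 with quantile normalization and 0.024 with the FPKM minimum. IRAK2 in the same comparison ran from -0.11 to 0.012 and was 0.038 and 0.011 under those 2 settings. With 1 library left out, the difference from vehicle ran from -0.081 to 0.11 for NFKBIE in erastin-R, from -0.17 to 0.15 for REL in erastin-R, from -0.0039 to 0.10 for RELA in RSL3-R and from -0.60 to 0.10 for MMP9 in RSL3-R cells. The cause was not tested.

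Libraries with the same replicate number did not deviate together over all genes tested (mean correlation -0.0021 over 9 pairs, against 0.0011 over 18 pairs with different numbers). This check cannot decide whether the numbers pair the samples, because a link that touches few genes would hardly move it. With the replicate number as a block, TNFAIP3 in erastin-R had a log2 fold change of 0.28 and an adjusted p of 0.0614, and no other call on the 10 genes changed. REL rested on the fewest counts of the 10 genes, 90 at the lowest, and its standard errors of 0.159 to 0.163 were close to those of RELB.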
